A study of Mus musculus with 6 samples.

Results

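The Polycomb core subunits described here are 10 genes chosen by name, 6 of Polycomb repressive complex 2 (Ezh2, Ezh1, Eed, Suz12, Mtf2 and Jarid2) and 4 of Polycomb repressive complex 1 (Rnf2, Ring1, Bmi1 and Cbx2). They were followed among 55400 genes counted by sequencing of polyadenylated RNA, and all 10 were among the 12199 genes that reached a mean of at least 1 FPKM (fragments per kilobase of exon, scaled to library depth) and were tested. The study, titled for a role of Setd5 in motor neuron development and locomotion, compared 3 libraries labelled Setd5sh with 3 labelled control, each made from motor neuron progenitors derived from mouse embryonic stem cells. In both groups the C57BL/6 stem cells had been grown on mitomycin-treated embryonic fibroblast feeders, carried the genotype label WT, and were seeded at 500 cells per embryoid body. Both received 1 µM retinoic acid and 0.5 µM SAG, an agonist of Hedgehog signalling, from day 2, a change of medium on day 3, and 1 µg/mL doxycycline for 36 h, and both were harvested on day 4. The labels do not spell out "Setd5sh", whether control cells carried another hairpin or whether the Setd5sh cells were 1 clone. Nor do they name replicates as separate cultures, so a p-value here speaks of the spread among these libraries alone, which may be technical.

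Polycomb complexes keep developmental genes silent. PRC2 places methyl groups on lysine 27 of histone H3 through Ezh1 or Ezh2, which act only when bound to Eed and Suz12, while PRC1 attaches ubiquitin to histone H2A through Ring1 or Rnf2. In the developing spinal cord this silencing is removed stepwise from the Hox clusters, whose genes then set the position of motor neurons along the body axis, and it also holds back genes of other lineages.

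None of the 10 subunits changed detectably in Setd5sh cells. Their log2 fold changes (Setd5sh minus control) lay between -0.68 for Mtf2 and 0.28 for Cbx2, and 0 of 10 passed an adjusted p of 0.05 in edgeR's quasi-likelihood test, where 0.0% of all tested genes passed. At an unadjusted p under 0.05, 0 of 10 subunits were called, against 149 tested genes or 1.22%, of which 0.615% were higher and 0.607% lower in Setd5sh. With the replicate number as a block 328 genes or 2.69% were called, again with 0 subunits. DESeq2 and limma called 0 genes after adjustment, and 221 and 152 genes at an unadjusted p under 0.05. For 0 of 10 subunits did all Setd5sh values lie on 1 side of all control values, an arrangement found above in 3.07% and below in 2.14% of tested genes. The adjusted p was 0.995 for each subunit and is not repeated below.

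Setd5 itself had 14.4, 13.4 and 12.9 FPKM in the Setd5sh libraries, against 22.2, 18.8 and 16.7 FPKM in control libraries. All Setd5sh values were below all control values. The mean was 70.6% of the control mean, with a log2 fold change of -0.51 (SE 0.16, unadjusted p = 0.0143, adjusted p = 0.995, edgeR). It was -0.36 (SE 0.13) without control replicate 1, and -0.31 (SE 0.14, unadjusted p = 0.0677) in edgeR with replicate blocks and with trends in GC content and length removed. Depth ran between 19639303 and 27660851 counts in Setd5sh libraries and between 19871993 and 32046466 in control libraries. Each subunit had between 497 and 9192 counts per library, so counting error was between 4.49% and 1.04% of a value, which is small beside the differences between replicates. Of 6 motor neuron progenitor markers, Olig2 and Nkx6-1 among them, 6 had a mean of at least 1 FPKM, with summed levels of 304 to 354 FPKM in Setd5sh and 269 to 290 FPKM in control libraries. Young neuron markers summed to 43.9 to 76.6 FPKM in Setd5sh and 27.8 to 38.1 FPKM in control libraries, with means of Stmn2 and Dcx under 1 FPKM. For both sums the groups did not overlap, and the part of either in the results below was not tested. No progenitor marker separated the groups by itself. Olig2 was at 116, 75.7 and 89.6 FPKM in Setd5sh libraries, against 78.7, 65.6 and 76.6 FPKM in control libraries. Sox2 was at 71.8, 81.3 and 68.9 FPKM in Setd5sh libraries, against 67.3, 83.8 and 72.7 FPKM in control libraries. Of the young neuron markers only Tubb3 and Ina separated them. Tubb3 made up most of the young neuron sum, at 53.5, 30.5 and 55 FPKM in Setd5sh libraries, against 19, 17.3 and 26.1 FPKM in control libraries, while Elavl3 and Elavl4 were highest in control replicate 1. Pluripotency markers summed to 8.76 to 61.3 FPKM in Setd5sh and 18.4 to 81.9 FPKM in control libraries, with means of Nanog and Esrrb under 1 FPKM. Postmitotic motor neuron markers summed to 10.2 to 19.5 FPKM in Setd5sh and 14.1 to 24.6 FPKM in control libraries, with means of Isl2, Lhx3, Chat and Slc18a3 under 1 FPKM. Feeder fibroblast markers summed to 7.06 to 9.13 FPKM in Setd5sh and 5.28 to 8.4 FPKM in control libraries, with means of Col3a1, Postn, Lum, Dcn and Thy1 under 1 FPKM. Endoderm and mesoderm markers summed to 4.45 to 8.43 FPKM in Setd5sh and 5.26 to 10.4 FPKM in control libraries, with means of Afp, Foxa3, T and Tbx6 under 1 FPKM, and those of astrocytes and oligodendrocyte precursors stayed at 0.55 FPKM or less in every library. No marker on these lists was at 0 in all libraries. In bulk RNA, fewer cells of a type and less RNA per cell cannot be told apart.

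Control replicate 1 stood apart from the other 5 libraries, and several subunits were among the genes in which it did so. Its correlation with the other libraries over all tested genes on log2(FPKM + 1) was 0.9202 to 0.9461, against 0.9638 to 0.9937 among the other 5. The difference followed base composition: control replicate 1 minus the mean of control replicates 2 and 3 correlated across 12190 genes with the GC content of the transcripts at r = -0.625, and with their length at r = 0.0627 (genes are not independent, and the values share the 3 libraries). Such trends were also seen within the Setd5sh group, where each library was set against the other 2, at r = 0.325 for replicate 2 and r = -0.367, the direction of control replicate 1, for replicate 3, so leaving out control replicate 1 alone does not remove all of them. When the genes were ranked by GC content and split into 10 bins of equal size, in the lowest bin (18.1% to 42.4% GC) the median excess of control replicate 1 was 0.88 on the log2(FPKM + 1) scale, and in the highest bin (58.1% to 75.5%) it was -0.42. The fold changes carried the same order. Their median was -0.45 in the lowest bin and 0.05 in the highest, and without control replicate 1 it was 0.07 and -0.05.

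The subunits span much of this range of base composition. Transcripts of Bmi1 (40.4% GC), Suz12 (40.8%), Rnf2 (41.3%) and Mtf2 (41.9%) are rich in A and T, Ezh2 (44.1%) and Eed (45.3%) come next, Ezh1 (50%) and Jarid2 (50.6%) lie in the middle, and Cbx2 (58.1%) and Ring1 (59.2%) are rich in G and C. Coding stretches of 120 bases show the difference by eye, 1 each from the 2 subunits with the largest excess in control replicate 1 over the other controls and from the 2 richest in GC. They are the plus-strand sequence of Mtf2 exon 2 (mm10 chr5:108080840-108080959) and Suz12 exon 7 (chr11:80013404-80013523), with 42.5% and 43.3% GC, and of Cbx2 exon 5 (chr11:119028088-119028207), with 60.8%, and the minus-strand sequence of Ring1 exon 4 (chr17:34023046-34023165), with 62.5%. All lie in coding exons of GENCODE M21, and capitals mark G and C.
Mtf2: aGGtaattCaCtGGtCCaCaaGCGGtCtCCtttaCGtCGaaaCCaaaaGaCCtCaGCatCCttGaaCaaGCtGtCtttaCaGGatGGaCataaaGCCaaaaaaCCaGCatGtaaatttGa
Suz12: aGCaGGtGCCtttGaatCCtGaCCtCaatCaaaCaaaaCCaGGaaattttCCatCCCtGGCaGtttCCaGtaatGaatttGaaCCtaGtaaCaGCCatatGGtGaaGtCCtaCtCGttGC
Cbx2: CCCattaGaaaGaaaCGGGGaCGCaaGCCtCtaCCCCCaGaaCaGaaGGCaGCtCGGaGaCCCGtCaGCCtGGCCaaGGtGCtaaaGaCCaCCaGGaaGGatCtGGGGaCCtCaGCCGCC
Ring1: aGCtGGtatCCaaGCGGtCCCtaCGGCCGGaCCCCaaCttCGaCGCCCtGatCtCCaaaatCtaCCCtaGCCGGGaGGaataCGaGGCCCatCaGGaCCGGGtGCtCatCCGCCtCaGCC

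In control replicate 1, Mtf2 exceeded the mean of control replicates 2 and 3 by 1.43 on the log2(FPKM + 1) scale, Suz12 by 1.06, Bmi1 by 1.04, Rnf2 by 0.80, Eed by 0.76 and Ezh2 by 0.63. Ezh1 (0.11) and Jarid2 (0.07) were close to the other controls, and Cbx2 was lower (-0.43). Ring1 (0.51) was higher in spite of its GC content. Across the 10 subunits the correlation with GC content was r = -0.783, as a description of 3 libraries. Control replicate 1 was the highest of all 6 libraries for 7 of 10 subunits, where it was so for 31.8% of tested genes. It was the lowest for 1 of 10, Cbx2, where it was so for 36.7%. Fold changes are therefore given also without that library and with the trends in GC content and length removed within replicate blocks.

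**Figure D1:**
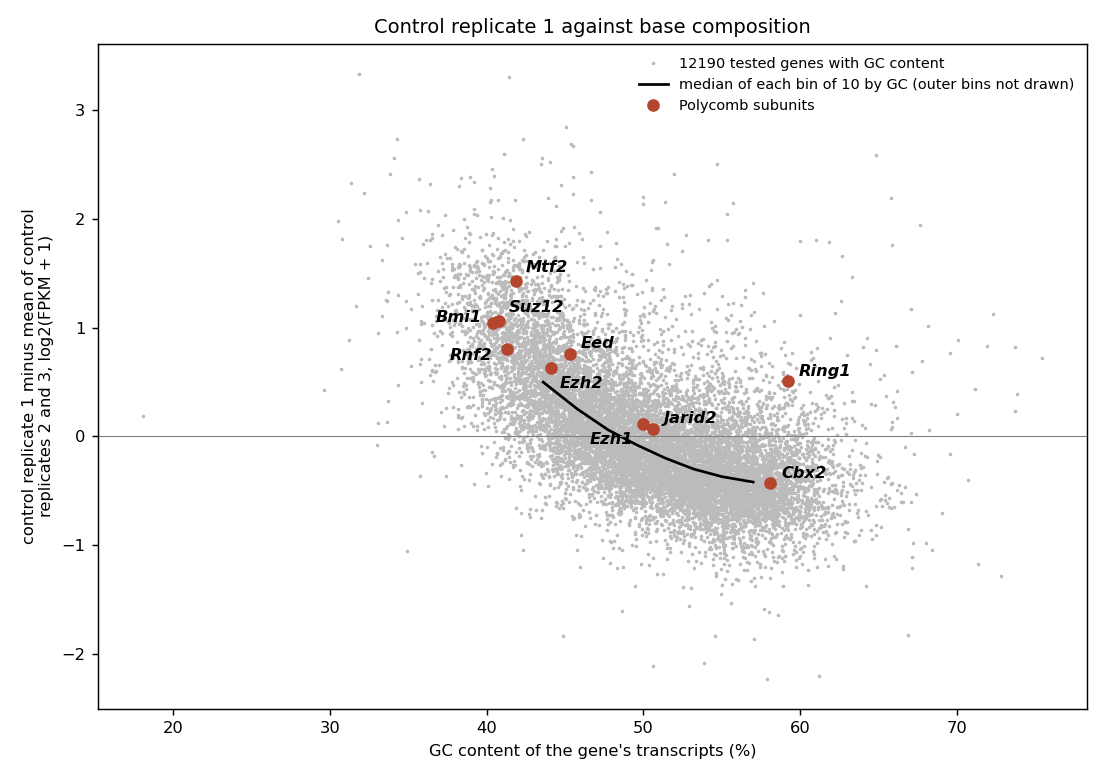
Each grey point is 1 of 12190 tested genes, with the GC content of its transcripts (%) on the x axis and control replicate 1 minus the mean of control replicates 2 and 3, as log2(FPKM + 1), on the y axis; red points are the 10 Polycomb subunits and the line joins medians of bins by GC content, the lowest and highest bin left out. Mtf2 (41.9% GC) lies at 1.43 and Cbx2 (58.1% GC) at -0.43.

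Ezh2 (mm10 chr6:47530139-47595341, minus strand), the main H3K27 methyltransferase of dividing cells, was at 35.5, 26.8 and 32.3 FPKM in Setd5sh libraries, against 43.0, 27.9 and 26.8 FPKM in control libraries. The groups overlapped, with Setd5sh replicate 2 and control replicate 3 both at 26.8 FPKM after rounding, and control replicate 1 was the highest. The log2 fold change was -0.06 (SE 0.24, unadjusted p = 0.8), with 0.24 (SE 0.16) without control replicate 1 and 0.17 (SE 0.11) with the block and the trends removed. Ezh1 (chr11:101191115-101226463, minus strand), its paralogue with weaker methyltransferase activity that is prominent in cells that have stopped dividing, was at 4.01, 5.89 and 3.78 FPKM in Setd5sh libraries, against 5.97, 6.53 and 4.54 FPKM in control libraries. The groups overlapped, because Setd5sh replicate 2 exceeded control replicate 3. In each same-numbered pair Setd5sh was lower, at 67.2%, 90.2% and 83.3% of its control. For these pairs and those below, the share of all tested genes with 1 direction in every pair is not given. Other subunits changed direction between pairs. Ezh2, Eed, Suz12, Mtf2, Rnf2 and Bmi1 were below control in pairs 1 and 2. In pair 3 they were above it, at 121%, 107%, 127%, 132%, 142% and 152% of control. The first pair holds control replicate 1. Ezh1 had a log2 fold change of -0.33 (SE 0.22, unadjusted p = 0.181), and -0.25 (SE 0.21) without control replicate 1. With the block and the trends removed it was -0.32 (SE 0.12, unadjusted p = 0.032); in that fit 1 of 10 subunits and 7.75% of tested genes were called at an unadjusted p under 0.05, and 0 genes after adjustment.

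Eed (chr7:89954654-89980983, minus strand) binds methylated H3K27 and stimulates the enzyme, and Suz12 (chr11:79993106-80034123, plus strand) is the scaffold on which PRC2 assembles. Eed was at 16.9, 14.8 and 14.3 FPKM in Setd5sh libraries, against 25.3, 15.9 and 13.4 FPKM in control libraries. All Setd5sh values lay between the lowest and the highest control. Its log2 fold change was -0.26 (SE 0.26, unadjusted p = 0.339), with 0.10 (SE 0.14) without control replicate 1 and -0.07 (SE 0.09) with the block and the trends removed. Suz12 was at 12.8, 16.1 and 15.4 FPKM in Setd5sh libraries, against 32.9, 19.1 and 12.2 FPKM in control libraries. The control values spread more widely than those of Setd5sh, and the groups overlapped through control replicate 3. The log2 fold change was -0.56 (SE 0.34, unadjusted p = 0.142), with -0.05 (SE 0.18) without control replicate 1 and -0.14 (SE 0.10) with the block and the trends removed.

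Mtf2 (chr5:108065674-108109004, plus strand) and Jarid2 (chr13:44729474-44921643, plus strand) bring PRC2 to chromatin in alternative forms of the complex, Mtf2 by binding unmethylated CpG-rich DNA and Jarid2 by binding ubiquitinated H2A. Mtf2 was at 9.51, 10.7 and 12.4 FPKM in Setd5sh libraries, against 30, 11.8 and 9.43 FPKM in control libraries. Control replicate 1 alone was far above the rest. The gene overlaps Tmed5 on the opposite strand (mean 2.58 FPKM), and whether the counting used strand, which would separate reads there, is not stated. Mtf2 had the lowest log2 fold change of the 10, -0.68 (SE 0.42, unadjusted p = 0.148), with 0.06 (SE 0.15) without that library and -0.21 (SE 0.17) with the block and the trends removed. Jarid2 was at 9.77, 12.2 and 9 FPKM in Setd5sh libraries, against 12.1, 12.9 and 10.2 FPKM in control libraries. The groups overlapped, while within same-numbered pairs Setd5sh was at 80.5%, 94.7% and 88.2% of control. Jarid2 had a log2 fold change of -0.19 (SE 0.17, unadjusted p = 0.276), -0.13 without control replicate 1, and -0.18 (SE 0.09) with the block and the trends removed.

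Rnf2 (chr1:151458004-151500955, minus strand) is the main ubiquitin ligase of PRC1 and Ring1 (chr17:34020792-34024680, minus strand) its paralogue. Rnf2 overlaps Trmt1l on the opposite strand (mean 5.25 FPKM), with the same limit. Rnf2 was at 18, 17.5 and 24.3 FPKM in Setd5sh libraries, against 31.4, 18.1 and 17.2 FPKM in control libraries. All Setd5sh values lay between the lowest control, replicate 3, and the highest, replicate 1. Its log2 fold change was -0.18 (SE 0.28, unadjusted p = 0.538), 0.20 without control replicate 1, and 0.14 (SE 0.09) with the block and the trends removed. Ring1 was at 12.3, 12.9 and 7.80 FPKM in Setd5sh libraries, against 16, 13.3 and 8.98 FPKM in control libraries. Replicate 3 was the lowest library in both groups, and in each pair Setd5sh was lower, at 76.9%, 96.8% and 86.9% of control. Ring1 had a log2 fold change of -0.23 (SE 0.28, unadjusted p = 0.433), 0.01 without control replicate 1, and -0.28 (SE 0.16) with the block and the trends removed.

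Bmi1 (chr2:18677018-18686629, plus strand), the PCGF subunit known for repressing the Cdkn2a locus, was at 8.38, 5.89 and 11.9 FPKM in Setd5sh libraries, against 15.8, 6.54 and 7.83 FPKM in control libraries. It varied by more within each group than between the groups. Its log2 fold change was -0.23 (SE 0.40, unadjusted p = 0.578), 0.31 without control replicate 1, and 0.13 (SE 0.10) with the block and the trends removed. Cbx2 (chr11:119022962-119031270, plus strand), a chromodomain protein that reads methylated H3K27 and compacts chromatin, was at 42.0, 34.8 and 37.6 FPKM in Setd5sh libraries, against 25.2, 31.6 and 37.4 FPKM in control libraries. Setd5sh replicate 2 was below control replicate 3, so the groups overlapped, and control replicate 1 was the lowest. With all 6 libraries Cbx2 was the only one of the 10 with a log2 fold change above 0, at 0.28 (SE 0.18, unadjusted p = 0.151), with 0.17 without control replicate 1 and 0.23 (SE 0.10) with the block and the trends removed. In same-numbered pairs it was at 167%, 110% and 101% of control.

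**Figure D2:**
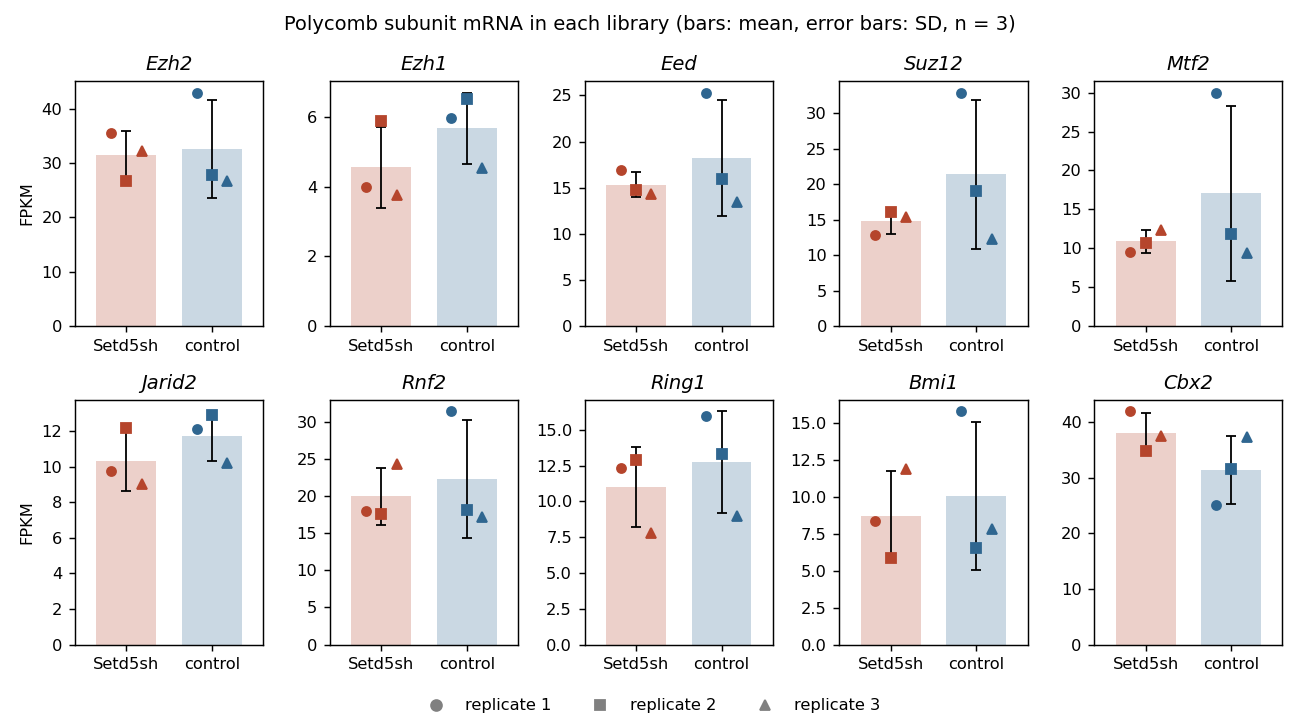
Deposited FPKM of each of the 10 subunits in the 3 Setd5sh and the 3 control libraries, with 1 point per library and the mean ± SD of each group. The groups overlap in every panel, and control replicate 1 is the highest point for 7 subunits, as for Mtf2 at 30 FPKM, and the lowest for Cbx2 at 25.2 FPKM.

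In the fit of all 6 libraries 9 of 10 subunits had a log2 fold change below 0, where 57.4% of all tested genes did, and the median over the subunits was -0.23 beside -0.04 over all tested genes. Without control replicate 1 there were 3 of 10 (Ezh1, Suz12 and Jarid2), where 48.5% of tested genes were below 0, with medians of 0.08 for the subunits and 0.01 for all genes. With the block and the GC and length trends removed there were 6 of 10, where 44.9% of tested genes were below 0, with medians of -0.11 and 0.02. Ezh1, Suz12 and Jarid2 were below 0, and Cbx2 above 0, in this fit and in all 15 alternatives run. Leaving out control replicate 3 in turn gave an unadjusted p under 0.05 for Suz12 (-0.84), Mtf2 (-0.98) and Cbx2 (0.43), where 7.89% of tested genes were so called, all with an adjusted p of 0.566 in edgeR. Leaving out control replicate 1 gave 0 of 10, where 2.96% of tested genes were called.

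**Figure D3:**
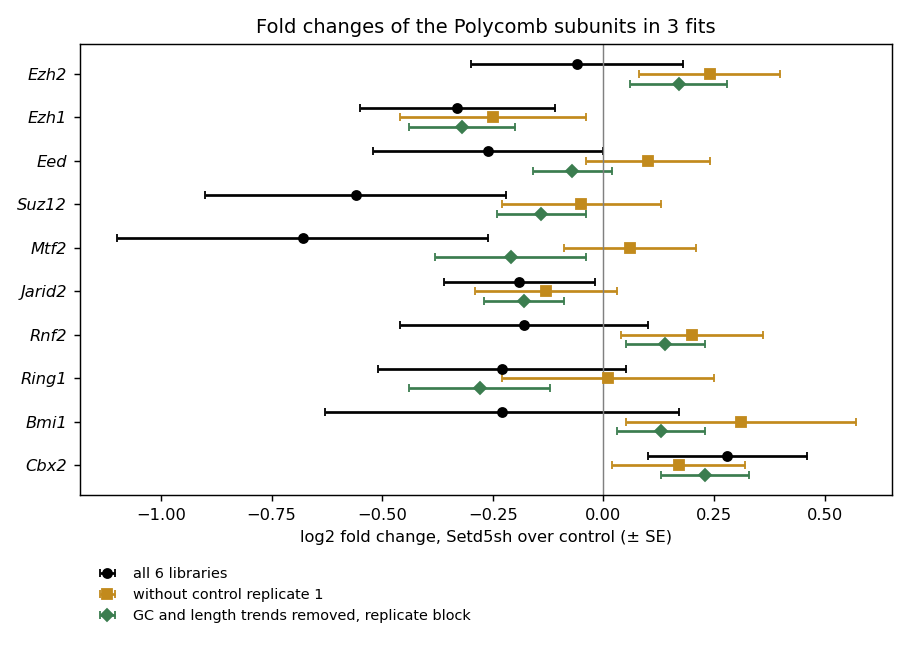
Log2 fold change (Setd5sh minus control) of the 10 subunits with its standard error in 3 fits: all 6 libraries, without control replicate 1, and with replicate blocks after removal of GC and length trends. Mtf2 sits at -0.68 with all libraries and at 0.06 without control replicate 1, while Ezh1 sits at -0.33, -0.25 and -0.32.

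On the per-length scale, over the mean of all 6 libraries, Cbx2 had the highest level of the 10 at 34.8 FPKM, above 87.0% of tested genes. Ezh2 followed at 32, Rnf2 at 21.1, Suz12 at 18.1, Eed at 16.8, Mtf2 at 14.0, Ring1 at 11.9, Jarid2 at 11, Bmi1 at 9.39 and Ezh1 at 5.12 FPKM, the last above 38.1% of tested genes. Neighbours in this order overlapped in their ranges over the libraries. Within libraries Ezh2 exceeded Rnf2 in 6 of 6 and Mtf2 exceeded Ring1 in 3 of 6. Cbx2 ranked first in 5 libraries and sixth in control replicate 1. The length used was all exonic bases of a gene, which exceeds that of its main coding transcript unevenly. It was 6678 against 2787 bases for Ezh2, and 4257 against 3807 bases for Cbx2. Ezh2 had more counts than Cbx2 in every library, so the order between genes depends on the length used.

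The levels of paralogues, of which the 10 subunits are only some, were compared on the same per-length scale, with the same limit. Ezh2 was above Ezh1 and Rnf2 above Ring1 in all 6 libraries. Of the CBX genes described here, Cbx2 was the highest in all 6 libraries, with 38.2 ± 3.62 FPKM in Setd5sh libraries against 31.4 ± 6.09 FPKM in control libraries (SD, n = 3 each), while Cbx7 averaged 9.35, Cbx6 8.47 and Cbx8 2.10 FPKM over all libraries. Of the 6 PCGF genes, Pcgf2 was the highest in all 6 libraries, with 23.6 ± 1.05 FPKM in Setd5sh libraries against 22.5 ± 1.68 FPKM in control libraries, above Bmi1, which it resembles in sequence and replaces in canonical PRC1. Of the PRC2 accessory genes, Epop, an Elongin-binding partner of PRC2 that is abundant in stem cells, was the highest in all 6 libraries with 61.8 ± 11.3 FPKM in Setd5sh libraries against 56.5 ± 17.5 FPKM in control libraries, above Mtf2 and Jarid2. These family levels were chosen for description after their values were seen.

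The ratio of paralogues within a library does not depend on how libraries are scaled, but trends in GC content were not removed from it. Ezh2 exceeded Ezh1 by 8.86-, 4.54- and 8.55-fold in Setd5sh libraries and by 7.19-, 4.27- and 5.91-fold in control libraries. In both groups replicate 2 had the smallest ratio, and the tests that follow did not use the replicate numbers. On the log2 scale the ratio averaged 2.81 ± 0.54 in Setd5sh and 2.50 ± 0.38 in control (SD, n = 3 each), a difference of 0.31 with p = 0.5 in an exact two-sided permutation test, in which 3 libraries against 3 can reach no p below 0.1. The ratio of Rnf2 to Ring1 differed by 0.09 (exact permutation p = 0.9), that of Bmi1 to Pcgf2 by -0.22 (p = 0.7, exact), that of Cbx2 to Cbx8 by 0.13 (p = 0.5, exact) and that of the alternative accessory subunits Mtf2 to Jarid2 by -0.28 (p = 0.8, exact). All 5 adjusted values were 0.9. Without control replicate 1 the 5 differences were all above 0, between 0.16 and 0.48. In the order given, the GC content of the first gene minus that of the second was -5.8, -18.0, -15.0, 1.7 and -8.7 percentage points. The part of these GC gaps in the differences was not tested.

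**Figure D4:**
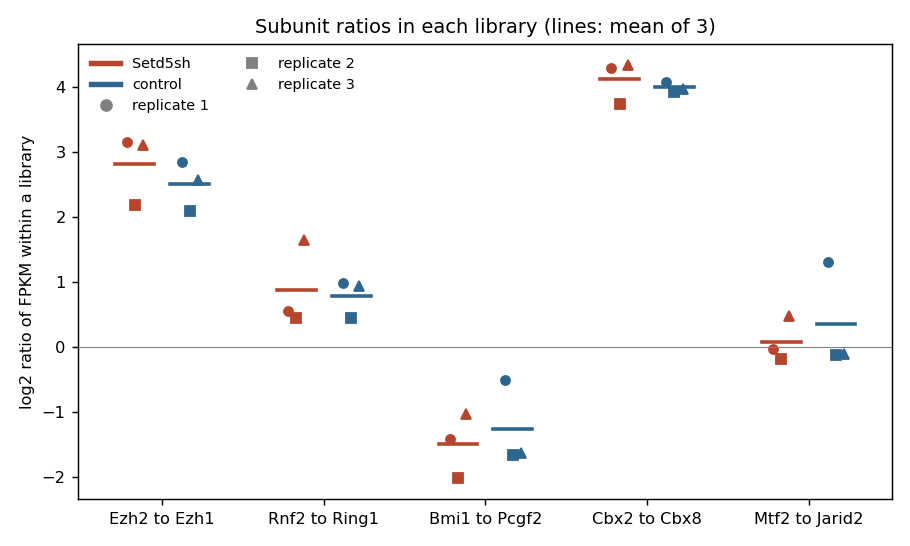
Log2 ratio of the deposited FPKM of 2 subunits in each library, for 5 ratios, with Setd5sh left of control and a line at the mean of each group (n = 3). The groups overlap for each ratio, and control replicate 1 lies highest for Mtf2 to Jarid2, at 1.31.

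The rest of the Polycomb machinery was read from lists of known subunits, of which 0 genes passed an adjusted p of 0.05 and 0 an unadjusted p under 0.05 in edgeR without the replicate block. With the block, Bcor passed an unadjusted p under 0.05 (log2 fold change 0.33, unadjusted p = 0.0486, adjusted p = 0.938, edgeR), where 2.69% of tested genes did. With the trends also removed, Bcor (unadjusted p = 0.011, adjusted p = 0.607, edgeR) and Phc2 (unadjusted p = 0.024, adjusted p = 0.641, edgeR) passed, where 7.75% of tested genes did. Beside the subunits above, PRC2 holds the histone-binding proteins Rbbp4 and Rbbp7. Rbbp7 was at 172, 201 and 167 FPKM in Setd5sh libraries, against 198, 221 and 200 FPKM in control libraries, and only Setd5sh replicate 2 reached into the control range (log2 fold change -0.21, SE 0.14). Rbbp4 had a log2 fold change of 0.12 (SE 0.19). Of 8 accessory genes tested, Mtf2 and Jarid2 included, 7 were below 0, with a median of -0.36, and 4 were below 0 without control replicate 1, with a median of -0.01. Phf1, a relative of Mtf2, was at -0.53 (SE 0.32) with all libraries and at -0.32 without that one. Lcorl and Lcor, partners of PRC2 in the Mtf2 form, had -1.20 (SE 0.69) and -0.47 (SE 0.40), and 0.26 and 0.17 without it. Lcorl reached the mean of 1 FPKM only through control replicate 1, at 3.84 FPKM. The filter thus favoured its value below 0, which is counted among the accessory genes above.

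In PRC1, the median over 7 tested ligase and PCGF genes, Rnf2, Ring1 and Bmi1 included, was -0.18 (log2 fold change), and 0.08 without control replicate 1. Pcgf6, Pcgf2 and Pcgf1 were at -0.18 (SE 0.19), 0.05 (SE 0.14) and -0.07 (SE 0.19). The 9 tested CBX, PHC and SCM genes of canonical PRC1 had a median of 0.10, and 0.01 without control replicate 1. Phc2, a polymerising subunit, was at 0.33 (SE 0.19), and 0.18 without that library, Phc3 at -0.42 (SE 0.41) and Cbx7 at -0.21 (SE 0.20). Of 14 variant PRC1 genes, which work without CBX proteins, 11 were above 0, with a median of 0.10, beside -0.04 over all tested genes. The other 3 were below 0, where 57.4% of tested genes were. Without control replicate 1 also 3 were below 0, where 48.5% of tested genes were, with a median of 0.07. Control replicate 1 was the lowest library for 7 of the 14, where it was so for 36.7% of tested genes. Kdm2b, which brings variant PRC1 to unmethylated CpG islands, was at 10.1, 10.6 and 10.1 FPKM in Setd5sh libraries, against 7.48, 9.87 and 9.82 FPKM in control libraries. Fbrs, a subunit of the variant complexes of Pcgf3 and Pcgf5, was at 9.93, 10.8 and 10.7 FPKM in Setd5sh libraries, against 8.49, 9.29 and 9.20 FPKM in control libraries. Both had all Setd5sh values above all control values, the only 2 of 43 tested genes of these Polycomb and opposing lists outside the 10 subunits, where 3.07% of tested genes did, and Kdm2b was named for this after its values were seen. Their log2 fold changes were 0.18 (SE 0.14) for Kdm2b and 0.22 (SE 0.13) for Fbrs, and 0.09 and 0.21 without control replicate 1. Bcor had the smallest unadjusted p of the variant genes, 0.0948, with a log2 fold change of 0.34 (SE 0.18), and Mga, a DNA-binding partner of Pcgf6, was at -0.78 (SE 0.50), and 0.16 without control replicate 1.

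Among genes too low to be tested, Scml2, a canonical PRC1 partner, had 0.39, 0.37 and 0.30 FPKM in Setd5sh libraries, against 1.20, 0.86 and 0.60 FPKM in control libraries, and Pcgf5 had 0.69, 0.79 and 0.82 FPKM in Setd5sh libraries, against 1.26, 1.10 and 1.01 FPKM in control libraries. Both had all Setd5sh values below all control values, where 5.57% of 6784 genes with a mean of 0.1 to under 1 FPKM did (and 1.95% had them all above), and both were named after their values were seen. With no filter on low genes the log2 fold change was -1.25 for Scml2 (SE 0.39, adjusted p = 0.238, edgeR) and -0.49 for Pcgf5 (SE 0.29, adjusted p = 0.888, edgeR).

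Enzymes that oppose Polycomb gave 0 calls as well. The H3K27 demethylases Kdm6a and Kdm6b were at -0.53 (SE 0.36) and 0.14 (SE 0.14), and at 0.02 and 0.14 without control replicate 1. The 7 tested genes of H2A deubiquitination had a median of 0.01. Mysm1, Usp16 and Asxl2 had the smallest p among them, at -0.89 (SE 0.54), -0.55 (SE 0.36) and -0.62 (SE 0.41), and at 0.10, 0.00 and 0.05 without control replicate 1.

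**Figure D5:**
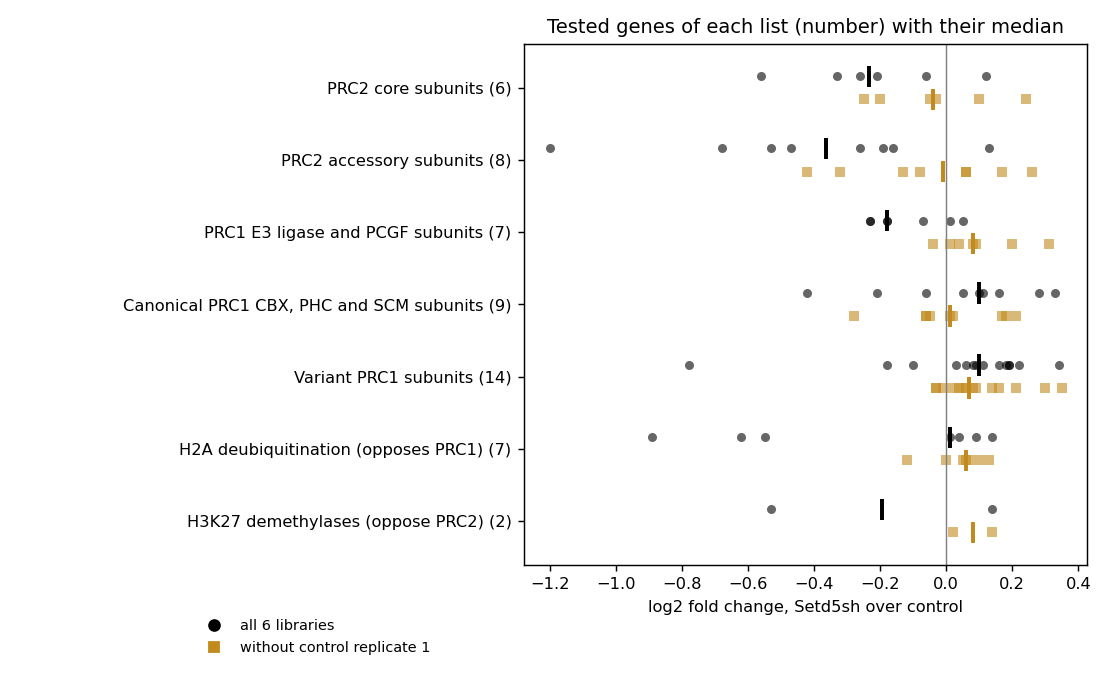
Log2 fold change (Setd5sh minus control) of each tested gene, by list, with all 6 libraries and without control replicate 1. The lists of PRC2 accessory genes and of PRC1 ligase and PCGF genes have medians of -0.36 and -0.18 with all libraries and of -0.01 and 0.08 without control replicate 1.

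Most of the listed genes that Polycomb is known to silence had a mean under 1 FPKM over the 6 libraries. So did most of all counted genes, of which 12199 of 55400 reached that mean. Silencing itself was not measured. Of 16 Hox genes of the posterior paralogue groups, 6 had 0 counts in every library, 15 had a mean under 1 FPKM, and none of those 15 exceeded 0.57 FPKM in any library. The exception was Hoxb9, a gene of the thoracic spinal cord, at 3.99, 3.03 and 7.66 FPKM in Setd5sh libraries, against 1.38, 2.46 and 3.26 FPKM in control libraries. Setd5sh replicate 2 lay below control replicate 3, so the groups overlapped. The log2 fold change of Hoxb9 was 1.05 (SE 0.43, unadjusted p = 0.0403, adjusted p = 0.995, edgeR). Leaving out Setd5sh replicate 3, the library with 7.66 FPKM, gave 0.58, and leaving out control replicate 1 gave 0.80. With the replicate block it was 1.01 (SE 0.28, unadjusted p = 0.0127, adjusted p = 0.938, edgeR), and in same-numbered pairs Setd5sh was at 289%, 123% and 235% of control. In the fit without the block, 0.615% of tested genes were higher in Setd5sh at an unadjusted p under 0.05. Of 20 other known targets, 16 had a mean under 1 FPKM and 4 were tested, with a median of 0.10, and -0.07 without control replicate 1. The endoderm genes Sox17 and Gata6 were at 0.44 (SE 0.29) and -0.04 (SE 0.23). Sox17 reached the mean of 1 FPKM only through the Setd5sh group (mean 1.16 FPKM, against 0.853 FPKM in control). The filter thus favoured a value above 0 for Sox17, and its fold change is a description. Cdkn2a, the locus that Bmi1 represses, was at 5.52, 8.11 and 5.30 FPKM in Setd5sh libraries, against 3.57, 8.77 and 6.53 FPKM in control libraries, and was named after its values were seen. The groups overlapped, with a log2 fold change of 0.01 (SE 0.35).

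Ezh2 and other PRC2 genes are known as targets of E2F factors in dividing cells, so promoters were searched for 4 E2F-type motifs, TTTCCCGC, TTTGGCGC, TTTCGCGC and TTTGCCGC, on both strands, in 250 bases before and 50 after each start in the RefSeq table (GRCm38.p6). Entries matched 9 of 10 subunits, Cbx2 being the other one. Of the 9, 2 held such a motif, Ezh2 and Suz12, against 6 of 15 replication and proliferation genes (40.0%) and 2.6% of 27025 genes. The 2 stretches are shown with the motif in capitals, for Ezh2 on the minus strand (chr6:47595001-47595073, first motif base at position 4 after the start) and for Suz12 on the plus strand (chr11:79992856-79992940, first motif base at -219).
Ezh2: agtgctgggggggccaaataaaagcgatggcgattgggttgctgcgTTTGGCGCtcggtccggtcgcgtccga
Suz12: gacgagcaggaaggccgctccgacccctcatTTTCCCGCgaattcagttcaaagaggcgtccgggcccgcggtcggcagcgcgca

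Over the 16 replication and proliferation genes the median log2 fold change was 0.14, beside -0.06 for Ezh2 and -0.56 for Suz12. Without control replicate 1 the median was 0.11, beside 0.24 for Ezh2 and -0.05 for Suz12. The replication licensing genes Cdc6 and Mcm2 were at 0.22 (SE 0.14) and 0.23 (SE 0.18). Mki67, a proliferation marker, was at 18.6, 13.7 and 23.0 FPKM in Setd5sh libraries, against 78.2, 13.1 and 14.3 FPKM in control libraries. Control replicate 1 alone was far above the rest, as for Mtf2, and the log2 fold change of -0.98 (SE 0.68) became 0.45 without that library.

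Over the 6 libraries the tested genes with the pattern most like that of Ezh1, by Pearson r of log2(CPM + 1), were Cyp4f17 (r = 0.9963), Ppcdc (0.9935) and Arnt (0.9919), and 97 genes exceeded 0.95. For Ezh2 they were Ankhd1 (0.9921), Ylpm1 (0.9911) and A830082K12Rik (0.9903), and 171 genes exceeded 0.95. With 6 libraries shared by all genes these values are descriptions.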

How the data were processed

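Polyadenylated RNA of 6 libraries, 3 Setd5sh and 3 control, was analysed, grouped and numbered by sample title. The authors deposited 1 table of raw read counts and FPKM per gene; HISAT2, SAMtools, HTSeq, DESeq2 and mm10 appear in the submitters' processing notes. Annotation release and strand use were not stated there. The deposited FPKM equal counts scaled by exonic length and library total, to within 0.005. GENCODE M21 supplied symbols, positions and GC content (99.5% of identifiers matched). Counts of 12199 genes with a mean of at least 1 FPKM were tested with edgeR 4.0.16 (quasi-likelihood, TMM, Benjamini-Hochberg, threshold 0.05, two-sided) in R 4.3.3; limma 3.58.1, DESeq2 1.42.0, other filters and scalings, and each library left out in turn were alternatives. Scripts were tested on simulated data.

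Deviations from group means on log2(FPKM + 1) correlated at 0.191, 0.686 and 0.145 between same-numbered libraries. All were above 0.1, so the replicate numbers were treated as pairs in the fits with a block and in same-numbered comparisons. The main edgeR fit and the permutation tests of ratios did not use them. The data and not the labels are the source of the pairing, and on log2(CPM + 1) the correlations were 0.177, 0.757 and 0.0439. Setd5sh replicate 3 correlated more with control replicate 1, at 0.176 and, on log2(CPM + 1), at 0.287. The pairing of replicate 3 is therefore uncertain. Setd5, the 10 subunits and, per list, up to 3 other genes by unadjusted p were named, with the 3 genes most like Ezh1 and Ezh2 by r; other names are said to follow from their values. Single-gene results of some listed genes are not reported here. The members and lists were chosen with earlier results of these data known. Of the listed accessory subunits, Ezhip was not analysed here. Figures were drawn with matplotlib 3.10.9.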

Additional observations from a re-analysis of the deposited data

How the results depend on the processing

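The 10 subunits gave 0 calls after adjustment under all 15 alternatives. The count of all called genes was 0 under 14 of them and 73 with no filter on low genes. With the replicate block, as for the pairing given above, 328 genes rather than 149 passed an unadjusted p under 0.05, and 945 with GC and length trends also removed. No adjusted call changed with the block. Among single genes, log2 fold changes of the opposite sign were 0.0236 for Ezh2 and 0.0201 for Gata6 with no filter. With the block and the trends removed they were 0.17 for Ezh2, 0.14 for Rnf2, 0.13 for Bmi1, 0.0103 for Lcor, 0.0116 for Pcgf6 and -0.0002 for Pcgf2. With no filter, Lcorl (-1.07, adjusted p = 0.0171) and Mki67 (-0.85, adjusted p = 0.044) passed in edgeR; the cause was not tested.

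Leaving out 1 library at a time changed the sign of several log2 fold changes, whose lowest and highest values were -0.19 and 0.24 for Ezh2, -0.45 and 0.10 for Eed, -0.98 and 0.0645 for Mtf2, -0.35 and 0.20 for Rnf2, -0.43 and 0.0104 for Ring1 and -0.52 and 0.31 for Bmi1. For other genes they were -0.0337 and 0.28 for Rbbp4, -1.61 and 0.26 for Lcorl, -0.77 and 0.17 for Lcor, -0.32 and 0.0407 for Pcgf6, -0.0238 and 0.11 for Pcgf2, -0.76 and 0.21 for Phc3, -1.14 and 0.16 for Mga, -1.27 and 0.10 for Mysm1, -0.77 and 0.00 for Usp16, -0.94 and 0.0539 for Asxl2, -0.80 and 0.0213 for Kdm6a, -0.16 and 0.0792 for Gata6, -0.25 and 0.30 for Cdkn2a and -1.38 and 0.45 for Mki67. For log2 ratios they were -0.29 and 0.31 for Rnf2 to Ring1, -0.45 and 0.16 for Bmi1 to Pcgf2, and -0.52 and 0.20 for Mtf2 to Jarid2. The other 2 ratios stayed above 0, at 0.10 to 0.62 for Ezh2 to Ezh1 and 0.02 to 0.32 for Cbx2 to Cbx8. Ezh1 (-0.51 to -0.21), Suz12 (-0.84 to -0.05), Jarid2 (-0.29 to -0.10) and Cbx2 (0.17 to 0.43) kept their sign with any 1 library left out. With 3 libraries a group, differences between replicates and not counting error limit what can be seen.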
